A study of Bos taurus with 15 samples.

Results

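The genes described here encode the proteins of the cytosolic ribosome, the particle that translates the cell's nuclear-encoded mRNAs. They were taken from a table of bovine (Bos taurus) oocyte RNA sequencing by gene symbol: RPL followed by a number, RPLP0 to RPLP2, RPS followed by a number, and RPSA, with the RPS6K kinase genes left out. The rule found 51 genes of the 24616 in the table, 28 of the large subunit and 23 of the small subunit, with RPS26 listed at a pair of places. Any count was present for 46 of them, 42 were counted in all 15 libraries, and these 42 were the ones with enough counts to be tested. The symbols do not cover the whole ribosome: a further 49 genes without a symbol were described in the table as cytosolic ribosomal proteins, and they are given separately.

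The oocytes were either left fresh or vitrified, a way of cryopreservation in which rapid cooling with much cryoprotectant makes the cell's water solidify without ice crystals. Of 5 groups of 3 libraries, the first was fresh, a pair was plunged into liquid helium with 5.6 M or 6.6 M cryoprotective agent, and a pair into liquid nitrogen at the same concentrations. All groups shared maturation in vitro for 22 to 24 h at 38.5 °C and removal of the cumulus cells with hyaluronidase, and RNA was amplified with SMARTer kits. The labels describe the extraction as from single cells and do not say whether a library holds 1 oocyte or several. The series title calls the oocytes immature while the sample labels call them matured in vitro, so their stage is not settled, and the labels do not tie libraries to animals or cultures. P-values therefore rest on the library-to-library spread alone, and part of it may be technical.

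A ribosome has a small subunit, which reads the mRNA, and a large subunit, which joins amino acids and releases the new chain through an exit tunnel. Most of the proteins are needed in equal numbers, and in most cells their mRNAs are abundant, short and start with a run of pyrimidines through which the mTOR pathway and LARP1 control their translation. Oocytes are known to build a store of ribosomes and of dormant mRNAs during growth, and after growth ends transcription is largely silent until the embryo's genome is activated, so that mRNA levels then follow mostly from the storage and decay of what was made before.

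Library totals ran from 1601519 to 8569618 counts. The 6 helium libraries (6346848 to 8569618) and nitrogen 6.6 M library 3 (7392972) were deep, and the other 8 held 1601519 to 2822837, so depth and coolant were largely confounded. Helium against fresh was wholly confounded with depth. Of 14 listed oocyte markers 11 were in the table, and all were counted in every library, with a sum in CPM, counts scaled to a common library size, of 4100 to 8202 in fresh, 7318 to 8814 in helium and 5244 to 7076 in nitrogen libraries. Of 13 cumulus and granulosa cell markers 12 were counted and FSHR was at 0. Their sum was 532.8 CPM in helium 6.6 M library 2 against 275 to 431 CPM elsewhere. Without HAS2 and STAR the remaining 11 markers summed to 258 CPM in that library, 34.1 to 66.2 CPM in the other helium libraries, 22.96 to 35.3 CPM in nitrogen and 14.5 to 31.0 CPM in fresh ones. HAS2 and STAR belong to the list of 13 but were left out of this sum. In that library HAS2 was at 83.5 CPM, its lowest level, and STAR at 191 CPM, within its range of 140 to 283 CPM. Blood markers summed to at most 0.934 CPM, with HBB and CD74 at 0. In such libraries fewer cells of a type and less RNA per cell cannot be told apart.

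The ribosomal protein mRNAs were far above the typical oocyte transcript but very unequal among themselves. Their level is given in FPKM, the deposited fragment counts scaled to each transcript's length in kilobases and to the library total. The median over the 46 counted members was 45.3 FPKM, against 1.63 FPKM over all 16294 counted genes, and 11 members reached 100 FPKM. Their transcripts were short, with a median exonic length of 564 bases against 1816 bases for all counted genes. Means over the 15 libraries spanned from 1232 FPKM for RPS27A to 0.041 FPKM for RPL39, and the 6 most abundant members took 60.9% to 70.1% of the members' counts in each library.

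**Figure D1:**
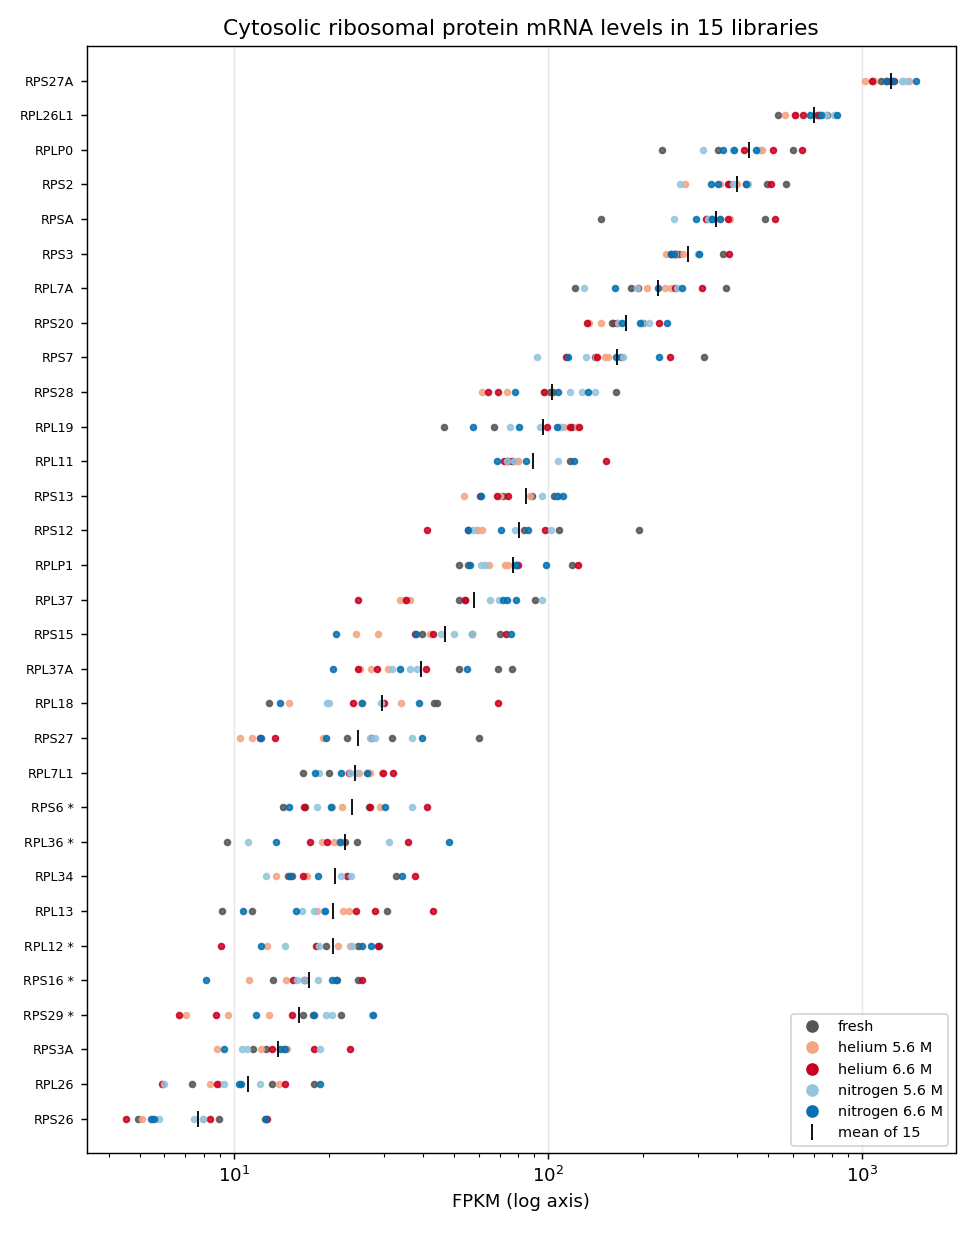
Levels of 31 of the 42 tested ribosomal protein genes, those named in the text, in FPKM on a log axis, with a point for each of the 15 libraries coloured by group and genes ordered by their mean; an asterisk marks genes whose span equals their exonic length. RPS27A, with a mean of 1232 FPKM, and RPL26L1, with 699 FPKM, stood at the top, and the groups overlapped for most genes.

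RPS27A, which encodes ubiquitin fused to a small-subunit protein and so serves both the ribosome and protein breakdown, was the most abundant at 1016 to 1480 FPKM (UMD3.1 chromosome 11, 37823446 to 37825428). RPL26L1, a relative of RPL26 at the polypeptide exit site, came next at 537 to 827 FPKM (chromosome 20, 4626432 to 4632649). Its relative RPL26 (chromosome 19, 28590314 to 28595213) lay at only 5.90 to 18.8 FPKM, so that within a library RPL26L1 exceeded RPL26 by 29.9 to 125 times, with a median of 67.2 times. By the deposited values RPL26L1 was thus the main member of this pair in every library. How reads that match both genes were assigned is not stated, so the size of this ratio is uncertain. RPS27, which despite its name encodes a protein unrelated to that of RPS27A, lay 19.1 to 123 times below it.

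The scaffold of the acidic stalk that recruits elongation factors, RPLP0, was the third most abundant at 230 to 640 FPKM. Its partner RPLP1 ranged from 52.0 to 124 FPKM, and RPLP0 exceeded it by 4.43 to 7.32 times, although in the stalk P1 and P2 outnumber P0. RPLP2 was not among the symbols, and an unnamed gene described as the P2 protein had a mean of 38.8 FPKM. RPL11, which binds the 5S RNA together with L5, had a mean of 89.2 FPKM, beside 112.5 FPKM for an unnamed gene described as L5.

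In the small subunit, the proteins that form the mRNA entry channel were high: RPS2 ranged from 262 to 570 FPKM and RPS3 from 237 to 376 FPKM. RPSA, the ribosomal protein that also serves as a laminin receptor, ranged from 147 to 525.7 FPKM. RPS6, whose protein is phosphorylated downstream of mTOR, had a mean of only 23.7 FPKM. Of the proteins sharing the stem RPL7, RPL7A had a mean of 223 FPKM and RPL7L1, a relative with a role in ribosome assembly, 24.2 FPKM, and RPL7 itself was never counted. RPL36 had a mean of 22.6 FPKM and RPL36A of 1.72 FPKM. The least abundant counted members were RPL36A, RPL8 with 1.69 FPKM, RPL30 with 1.38 FPKM and RPL39 with only 2 counts in all.

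Never counted were RPL7, RPL23, RPL3L, RPL10L and the second RPS26 entry on chromosome 6; the RPS26 entry on chromosome 5 had a mean of 7.70 FPKM. RPL3L and RPL10L are known mainly from muscle and testis. The 9 untested members were these 5 together with RPL8 (83 counts over all libraries), RPL36A (57), RPL30 (32) and RPL39 (2). For RPL7 and RPL23 the silence concerned the named entry only. Unnamed genes described as L7 on chromosome 14 and L23 on chromosome 19 had means of 4.91 and 18.0 FPKM.

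Several symbols sat on entries that look unlike an ordinary gene. For 8 members, among them RPL8, RPL12, RPL30, RPL36, RPS6, RPS16 and RPS29, the span in the table equalled the exonic length, so the entry has no intron. These had a median of 16.7 FPKM and at most 23.7 FPKM, against a median of 57.0 FPKM for the 38 members with introns. Ribosomal protein genes are known for many intronless copies, and reads of near-identical copies may have been split between entries, so levels of these 8 are uncertain. Intron-bearing unnamed genes of the same description were higher for S16 on chromosome 18 (46.9 FPKM against 17.4 for RPS16) and L36 on chromosome 7 (59.4 FPKM against 22.6 for RPL36), and about as high for S6 on chromosome 8 (24.6 FPKM against 23.7 for RPS6). Of the 49 unnamed genes 47 were counted and 7 reached 100 FPKM. These pairs were chosen after their values were seen. FAU and RACK1, ribosomal proteins with other kinds of names, had means of 114.5 and 17.4 FPKM.

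The members together took a small and similar share of all counts in every group. In fresh oocytes the share was 0.295%, 0.478% and 0.364% in libraries 1 to 3. In helium it was 0.344%, 0.350% and 0.357% at 5.6 M (libraries 3 to 5) and 0.368%, 0.482% and 0.331% at 6.6 M. In nitrogen it was 0.380%, 0.322% and 0.393% at 5.6 M and 0.386%, 0.319% and 0.397% at 6.6 M. The fresh libraries alone spanned nearly the whole range, so every vitrified group lay inside it or, for helium 6.6 M library 2, just above it. Group means ± SD (n = 3) were 0.379 ± 0.092% fresh, 0.350 ± 0.0067% and 0.394 ± 0.079% in helium at 5.6 M and 6.6 M, and 0.365 ± 0.038% and 0.367 ± 0.042% in nitrogen.

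**Figure D2:**
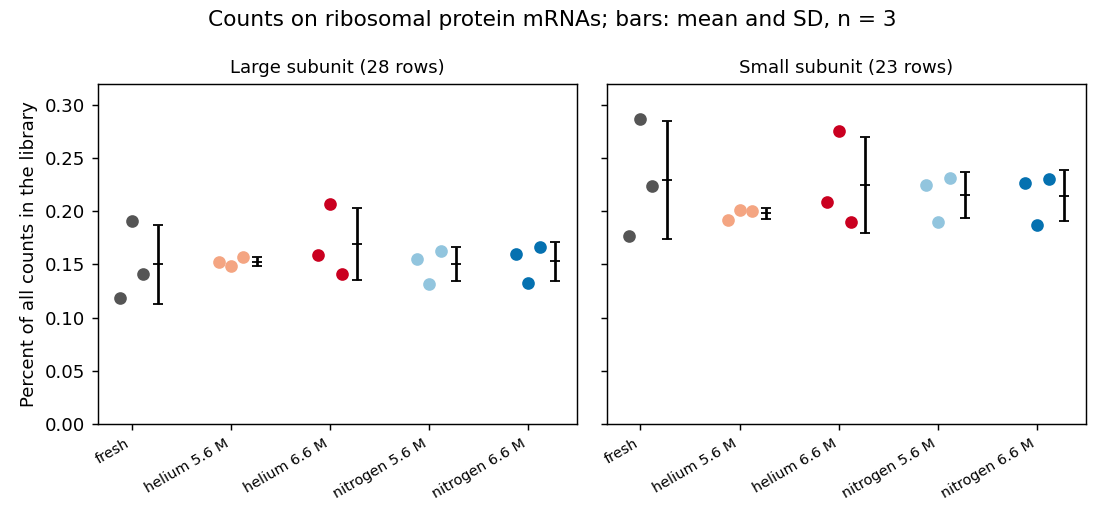
Percent of all counts on the ribosomal protein genes in each of the 15 libraries by group, for the large-subunit and the small-subunit members. The fresh libraries, whose total shares were 0.295%, 0.478% and 0.364%, were spread as widely as all the others together.

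Large-subunit members took 0.118% to 0.206% of counts and small-subunit members 0.177% to 0.287%. Single libraries stood apart across the members: helium 6.6 M library 2 held the highest level of the 15 for 11 of the 42 tested members, fresh library 3 for 10, nitrogen 6.6 M library 3 for 7 and fresh library 2 for 6. Fresh library 1 held the lowest level for 9 members and nitrogen 6.6 M library 2 for 7. Helium 6.6 M library 2 was also the library with the high cumulus marker sum; the part of those cells in its ribosomal protein level was not tested. Among the steadiest members were RPS3 and RPS27A, with coefficients of variation of 11.5% and 14.6% over the 15 libraries, and the least steady were RPS27 (63.0%), RPL37A (46.4%) and RPL18 (46.3%).

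All changes between groups are given on TMM-scaled CPM, as log2 fold changes with SE from a quasi-likelihood fit of edgeR over 8441 genes, with Benjamini-Hochberg adjusted p-values over all of them and a threshold of 0.05. Each comparison with fresh oocytes used the same 3 fresh libraries, so these comparisons are not independent of each other.

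Against fresh oocytes, a single large-subunit gene, RPL37A, was lower after vitrification, and no member was higher. RPL37A encodes a small zinc-binding protein of the large subunit (chromosome 2, 105202277 to 105204896). Its level was 36.6, 37.5 and 60.0 CPM in the fresh libraries. In helium it was 19.0, 16.0 and 18.5 CPM at 5.6 M and 18.6, 24.2 and 15.9 CPM at 6.6 M. In nitrogen it was 23.6, 22.6 and 26.0 CPM at 5.6 M and 13.7, 23.5 and 37.4 CPM at 6.6 M. All helium and nitrogen 5.6 M libraries thus lay below all fresh ones, and 1 nitrogen 6.6 M library, number 3, reached into the fresh range.

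Over all vitrified libraries RPL37A fell by 1.06 on the log2 scale (SE 0.22, edgeR adjusted p = 0.0356), and 11 of 12 libraries lay below the lowest fresh one. It was 1 member lower of 42, where 0.237% of all genes tested were called lower and 0.509% either way. In helium at 5.6 M it fell by 1.33 (SE 0.29, edgeR adjusted p = 0.0462), again the only call among the members, where 0.284% of all genes were called lower and 0.474% either way. At 6.6 M in helium the difference was -1.20 (SE 0.29) and did not pass (edgeR adjusted p = 0.0643). In nitrogen it was -0.91 at 5.6 M (edgeR adjusted p = 0.568) and -0.80 at 6.6 M (0.424), the latter -0.50 without fresh library 3 and -1.26 without nitrogen 6.6 M library 3.

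Both RPL37A calls were marginal. Of the 15 fits that left out 1 library each, 4 called RPL37A in helium 5.6 M (edgeR adjusted p 0.0164 to 0.233) and 4 called it over all vitrified libraries (0.0116 to 0.216). Without fresh library 3, which held the highest level of 60.0 CPM, the differences were -1.04 (edgeR adjusted p = 0.201) and -0.77 (0.216). Without fresh library 1 they were -1.44 (0.107) and -1.14 (0.120). Leaving out any helium 5.6 M library, helium 6.6 M library 1 or 3, any nitrogen 5.6 M library or nitrogen 6.6 M library 2 also ended both calls, with the direction kept in all 15. With depth class in the fit the differences were larger but did not pass, at -2.33 (edgeR adjusted p = 0.0969) in helium 5.6 M and -1.67 (0.0673) over all vitrified libraries. All fresh libraries were shallow and all helium ones deep. The depth term therefore rested on nitrogen 6.6 M library 3 alone, where RPL37A was at 37.4 CPM. Depth and vitrification in helium cannot be told apart, and the larger values show no stronger effect.

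**Figure D3:**
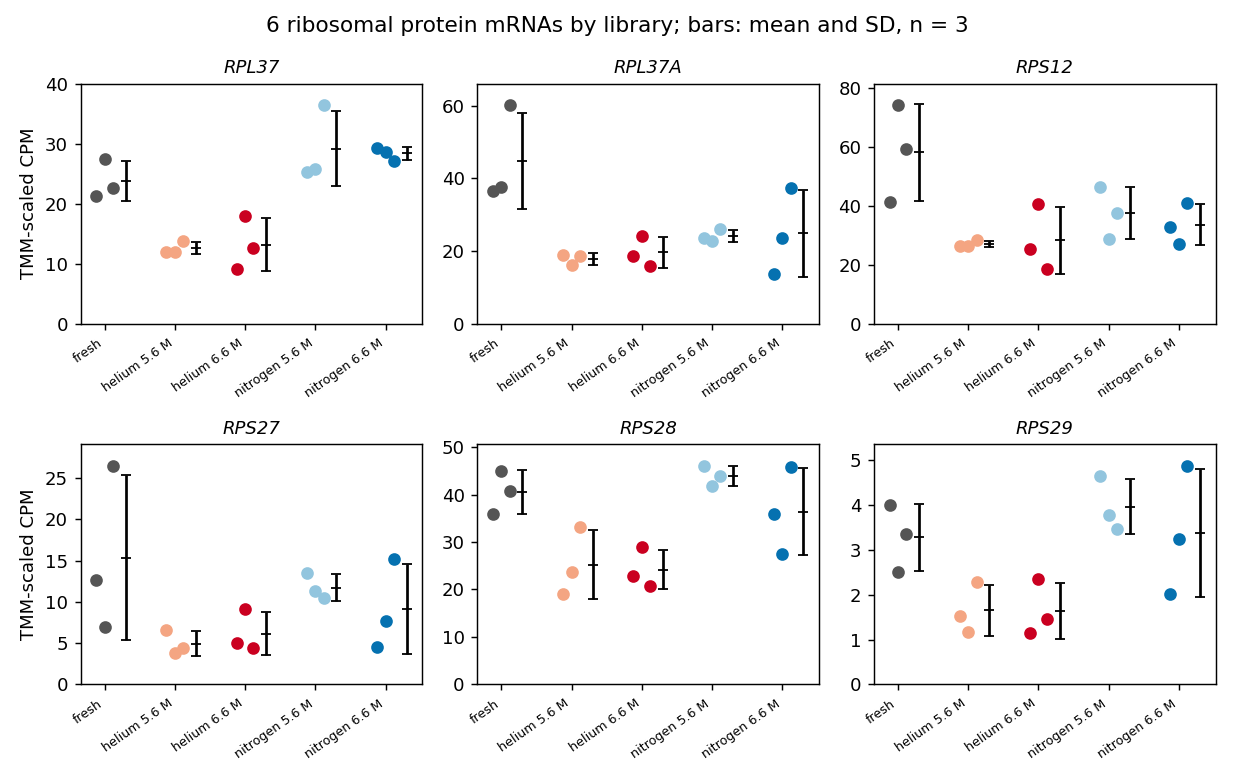
TMM-scaled CPM of 6 ribosomal protein genes in each library, by group, with a point per library and a bar at the group mean. RPL37A was at 36.6 to 60.0 CPM in fresh oocytes and 13.7 to 37.4 CPM after vitrification, and RPL37 was at 9.10 to 17.9 CPM in helium and 25.3 to 36.4 CPM in nitrogen.

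The small-subunit genes RPS12 and RPS27 had the next smallest p-values against fresh. RPS12, a protein of the small subunit's head, was at 41.2, 74.1 and 59.2 CPM in fresh oocytes. It was at 26.4, 26.5 and 28.3 CPM in helium 5.6 M, and at 25.5, 40.7 and 18.5 CPM in helium 6.6 M. In nitrogen it was at 46.4, 28.7 and 37.6 CPM at 5.6 M and 32.9, 27.1 and 40.9 CPM at 6.6 M. The fresh libraries lay above all but 1 of the vitrified ones, nitrogen 5.6 M library 1. The difference over all vitrified libraries was -0.89 (SE 0.21, edgeR adjusted p = 0.0654), and it was -1.11 (0.0816) and -1.05 (0.0802) in helium at 5.6 M and 6.6 M and -0.64 (0.718) and -0.78 (0.412) in nitrogen, the former -0.42 without nitrogen 5.6 M library 2.

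RPS27, a zinc-finger protein of the small subunit, was at 12.6, 7.01 and 26.4 CPM in fresh oocytes, of which the lowest and highest were far apart. It was at 6.61, 3.74 and 4.39 CPM in helium 5.6 M, below every fresh library, and at 4.98, 9.10 and 4.37 CPM in helium 6.6 M. The nitrogen levels of 4.56 to 15.1 CPM covered much of the fresh range. The difference was -1.66 (SE 0.45, edgeR adjusted p = 0.0959) in helium 5.6 M and -1.02 (SE 0.35, 0.197) over all vitrified libraries. These rested on single fresh libraries. Without fresh library 3, at 26.4 CPM, they were -0.94 (edgeR adjusted p = 0.495) and -0.30 (0.815), and without fresh library 2, at 7.01 CPM, both passed (0.0162 and 0.0413).

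Most members lay somewhat below fresh oocytes in helium 5.6 M, and about equal numbers lay below and above in nitrogen. In helium 5.6 M the median log2 fold change of the 42 was -0.37, with 31 below 0, where 49.9% of all genes were below 0. In helium 6.6 M it was -0.11, with 25 below 0 (52.3% of all genes). In nitrogen the medians were -0.03 and -0.02 at 5.6 M and 6.6 M, with 22 below 0 in each (55.4% and 53.3% of all genes). The medians of all genes in these 4 comparisons were 0.0005, -0.02, -0.05 and -0.03. In helium 5.6 M the 3 libraries lay wholly below the fresh ones for 12 members (8.79% of all genes) and wholly above for 2, RPL7L1 and RPL19 (9.36%). In helium 6.6 M this was so for 6 members (8.25%) and 1 member (8.06%). In nitrogen the fresh libraries were clear of the others for 1 member at each concentration, RPL37A at 5.6 M (4.03% of all genes were lower without overlap) and RPS12 at 6.6 M (4.04%). Most of these members did not pass the test.

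No member was called in the other 3 vitrified groups against fresh. By edgeR 0 of 42 passed in helium 6.6 M, where 0.628% of all genes did (53 genes, and 17 with the replicate number as a block), 0 in nitrogen 5.6 M, where 0.0118% did, and 0 in nitrogen 6.6 M, where 0.0474% did. At an unadjusted p under 0.05 there were 5 lower and 2 higher members in helium 6.6 M (8.34% and 7.12% of all genes), 2 lower in nitrogen 5.6 M (2.96%) and 3 lower in nitrogen 6.6 M (3.57%). In helium 5.6 M there were 9 lower and 1 higher (8.51% and 5.63% of all genes). DESeq2 called more genes throughout: 4 members in helium 5.6 M (RPL37, RPL37A, RPS12 and RPS27), where it called 3.96% of all genes, 3 in helium 6.6 M (RPL37, RPL37A and RPS12; 4.62%), and 0 in nitrogen at 5.6 M (0.931%) and 6.6 M (1.36%).

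Members of the small subunit were below fresh oocytes more often than not, and those of the large subunit were evenly split. Over all vitrified libraries 17 of 22 small-subunit members were below fresh, with a median of -0.37, and 9 of 20 large-subunit members were, with a median of 0.01, while 53.5% of all genes were below 0. At an unadjusted p under 0.05 there were 6 lower members and none higher, and 7.71% of all genes were lower. All 10 tested members listed for the small subunit's head, the part that holds the mRNA and the tRNAs near the decoding site, had a difference below 0 (median -0.38), from RPS12 at -0.89 to RPS20 at -0.01. None of the 10 passed by edgeR, 2 had an unadjusted p under 0.05, and DESeq2 called 1, RPS12, where it called 3.44% of all genes. The P stalk genes RPLP0 and RPLP1 stood at 0.20 and 0.06. By group, 19 and 17 of 22 small-subunit members were below 0 in helium at 5.6 M and 6.6 M. In nitrogen 13 and 14 were. Of 20 large-subunit members 12 and 8 were below 0 in helium, and 9 and 8 in nitrogen. All 10 head members were below 0 in both helium groups (medians -0.81 and -0.50), and 6 and 8 in nitrogen (both -0.18). Of all genes 49.9% and 52.3% were below 0 in helium, and 55.4% and 53.3% in nitrogen. Depth and helium cannot be told apart here. Whether the subunits differ was not tested.

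RPL37 and RPS7 were also among the members with the smallest p-values against fresh, and neither passed. RPL37 stood at -0.85 (edgeR adjusted p = 0.121) in helium 6.6 M. RPS7, a small-subunit protein that also binds MDM2, stood at -0.59 (0.723) in nitrogen 5.6 M, or -0.35 without nitrogen 5.6 M library 2. Their interval at 2 SE ran from -1.37 to -0.34 for RPL37 and from -1.15 to -0.02 for RPS7.

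Between the coolants the clearest member was RPL37, a small zinc-binding protein of the large subunit (chromosome 20, 33667205 to 33669805). Its level in helium was 12.02, 12.002 and 13.8 CPM at 5.6 M and 9.10, 17.9 and 12.6 CPM at 6.6 M. In nitrogen it was 25.3, 25.9 and 36.4 CPM at 5.6 M and 29.4, 28.7 and 27.2 CPM at 6.6 M. In fresh oocytes it was 21.3, 27.5 and 22.7 CPM. Every helium library was thus below every nitrogen and every fresh library, at both concentrations, and the fresh and nitrogen levels overlapped.

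RPL37 fell by 1.15 on the log2 scale in helium against nitrogen (SE 0.18, edgeR adjusted p = 0.00506), a level of 0.450 of that in nitrogen and the fifth smallest p of all genes. It was the only member called of 42, where 0.592% of all genes were called lower and 0.663% either way, and the only member without overlap between the coolants (2.63% of all genes were lower without overlap). The call held in all 15 fits that left out 1 library, with differences of -1.29 to -1.05 and edgeR adjusted p-values of 0.0015 to 0.0282. It was lost when the depth class of a library, deep or shallow, entered the fit (-1.08, edgeR adjusted p = 0.182). In that fit depth and coolant are separated by nitrogen 6.6 M library 3 alone, the deep nitrogen library, where RPL37 was at 27.2 CPM, and 1 library is too few to tell them apart. The oocyte marker sum was also higher in every helium library than in every nitrogen one. The cumulus sum of all listed markers overlapped between coolants, at 284 to 533 CPM in helium and 294 to 327 CPM in nitrogen. With HAS2 and STAR left out, it overlapped only through nitrogen 6.6 M library 3 (35.3 CPM). The part of these cells in the RPL37 difference was not tested. Against fresh oocytes RPL37 stood at -0.92 in helium 5.6 M (edgeR adjusted p = 0.110), 0.28 in nitrogen 5.6 M (0.873) and 0.25 in nitrogen 6.6 M (0.867).

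RPL37 and RPL37A, which despite their names encode different proteins, can be set side by side. The differences of RPL37A from fresh were below 0 in all 4 vitrified groups, and those of RPL37 below 0 in both helium groups and above 0 in both nitrogen groups. Between helium and nitrogen RPL37A itself stood at -0.41 (edgeR adjusted p = 0.336). Within a library the FPKM of RPL37 over RPL37A ranged from 0.674 to 3.84, with a median of 1.33.

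Below RPL37 in the ranking came short small-subunit genes that did not pass. RPS28, a head protein that contacts the mRNA path, was at 19.0 to 33.2 CPM in helium and 27.5 to 46.0 CPM in nitrogen, with overlap. Its difference was -0.71 (SE 0.17, edgeR adjusted p = 0.0588), and it passed when fresh library 1, fresh library 2, helium 5.6 M library 5 or nitrogen 6.6 M library 2 was left out (0.0255 to 0.0407). RPS29, a zinc-binding head protein, was at 1.14 to 2.34 CPM in helium and 2.03 to 4.86 CPM in nitrogen, with a difference of -1.21 (SE 0.31, edgeR adjusted p = 0.0731), which passed without fresh library 2 (0.0460) and in no other fit that left out a library. DESeq2 called 3 members between the coolants, RPL37, RPS28 and RPS20, where it called 3.48% of all genes.

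RPS13, next in rank and named after its values were seen, stood at -0.59 (edgeR adjusted p = 0.119). It turned to 0.13 with depth class in the fit: the deep nitrogen 6.6 M library 3 was at 32.5 CPM, among the helium libraries (26.1 to 46.9 CPM), and the 5 other nitrogen libraries at 53.7 to 61.1 CPM.

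**Figure D4:**
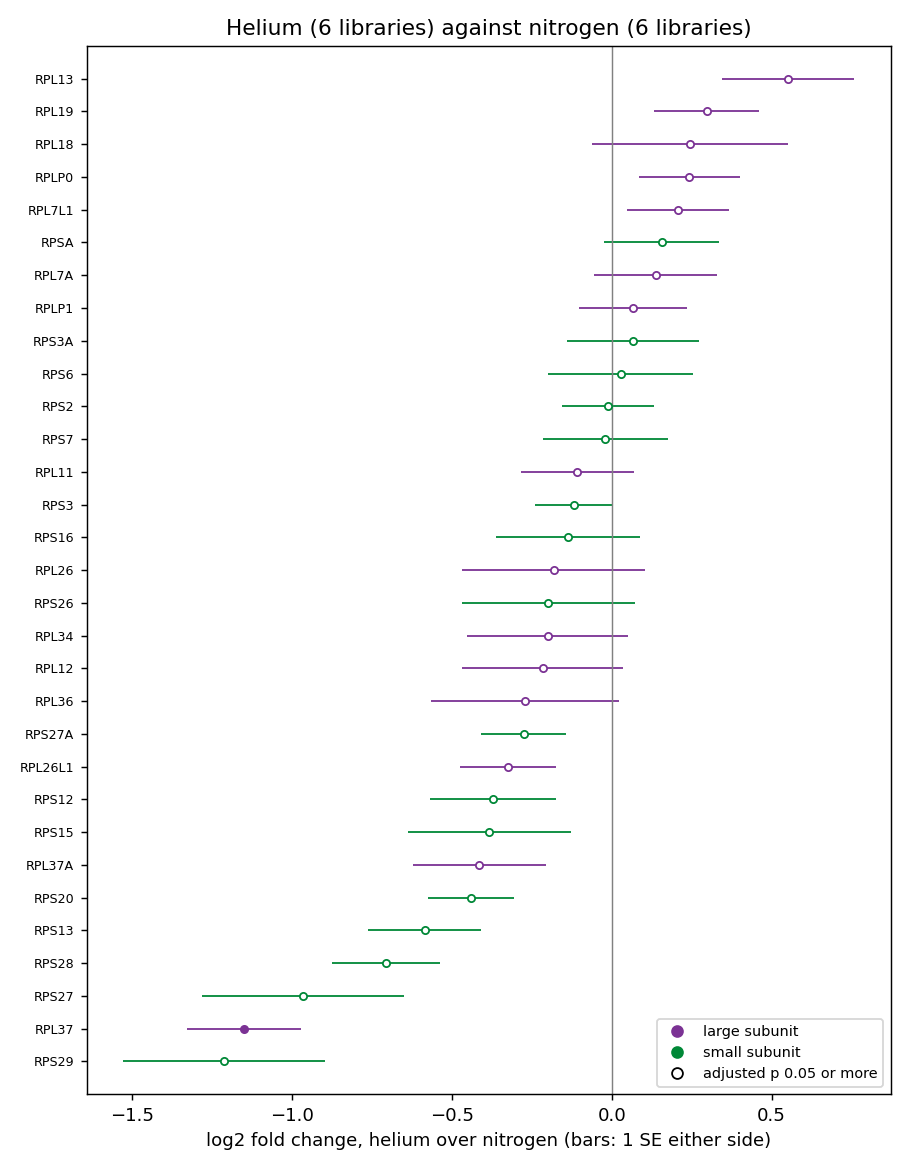
Log2 fold change of helium against nitrogen for the same 31 ribosomal protein genes, with bars of 1 SE to either side, ordered by size. Of all 42 tested, RPL37 at -1.15 was the only member past the threshold, and RPS29 at -1.21 had a wider interval.

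Over the members the median difference between helium and nitrogen was -0.15, with 29 of 42 below 0, where 46.6% of all genes were below 0 and their median was 0.03. At an unadjusted p under 0.05 there were 7 lower and 1 higher, RPL13, against 8.55% and 7.43% of all genes. Of the large subunit 12 of 20 were below 0, of the small subunit 17 of 22, and of its head 10 of 10 (median -0.38). Apart from RPS3 the head members were under 600 bases long, and the part of length in their difference was not tested. RPL13, a large-subunit protein, stood at 0.55 (edgeR adjusted p = 0.207).

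This difference between the coolants ran with transcript length. Across the 42 members the log2 fold change correlated with log2 exonic length at Pearson 0.72 and Spearman 0.68, and across all 8441 genes at 0.13 and 0.06. Genes are not independent replicates and share these libraries, so the values are descriptive. Of the 21 members under 600 bases 85.7% were lower in helium, with a median of -0.28, and the 20 members of 600 to 1200 bases had a median of 0.01. The same was seen in genes that are not members. The 394 of them under 600 bases had a median of -0.27 with 72.8% below 0. Those of 600 to 1200 bases had a median of 0.03, and longer ones 0.06 and 0.02. Short unnamed genes described as ribosomal proteins are among these 394, since the rule goes by symbol. The medians of short members and of other short genes were thus nearly equal. The 600-base boundary was set after the data were seen.

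**Figure D5:**
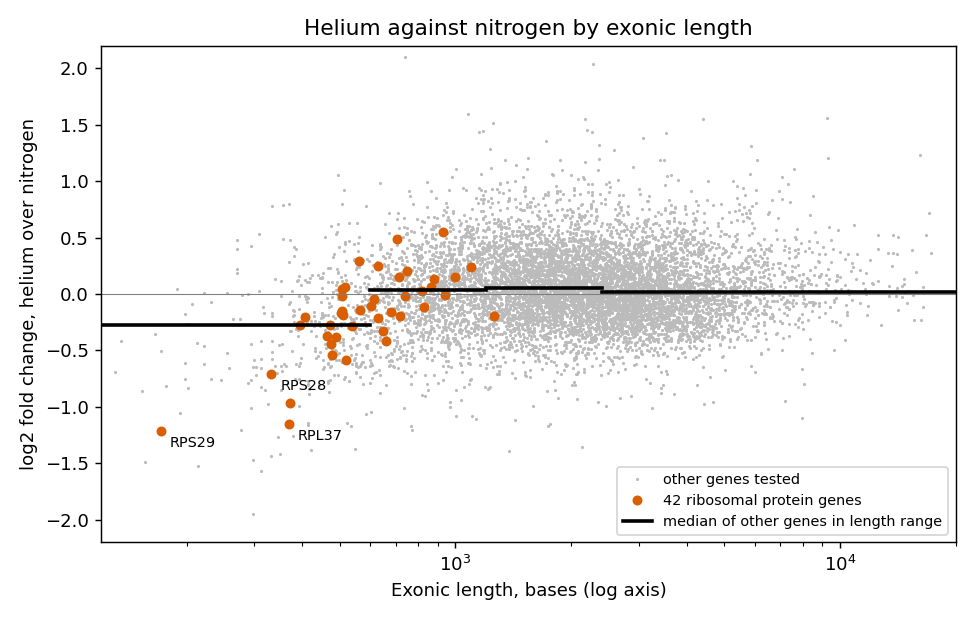
Log2 fold change of helium against nitrogen over exonic length in bases (log axis) for all genes tested (small points) and the 42 ribosomal protein genes (large points); 32 genes lie outside the plotted range. Members under 600 bases had a median of -0.28 and other genes of that length -0.27.

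With a smooth trend on length taken out of each library, RPL37, whose exonic length is 369 bases, still passed at -0.87 (edgeR adjusted p = 0.0375). The differences of the other short genes shrank to -0.36 for RPS28 (edgeR adjusted p = 0.292) and -0.62 for RPS29 (0.313). Against fresh oocytes the correlation of the members' change with length was 0.44 and 0.51 (Pearson, n = 42) in helium at 5.6 M and 6.6 M, and -0.15 and -0.10 in nitrogen. Across all 8441 genes it was 0.01 and -0.14 in helium and -0.19 at both concentrations in nitrogen. Members under 600 bases had medians of -0.42 and -0.27 in helium at 5.6 M and 6.6 M, and other genes of that length -0.13 and 0.005. In nitrogen at 5.6 M and 6.6 M these medians were -0.03 and 0.08 for members, and 0.16 and 0.18 for the other genes. RPL37A, with 659 bases, was not among the short members.

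Cryoprotectant concentration left no call among the members. Between 6.6 M and 5.6 M edgeR called 0 of 42 and 0% of all genes, and 0 members had an unadjusted p under 0.05; DESeq2 called 0 members as well. Differences were small and mostly above 0, with a median of 0.10 and 9 of 42 below 0 (48.7% of all genes). The smallest p-values belonged to the large-subunit genes RPL34 at 0.47, with an interval at 2 SE from -0.03 to 0.98, RPLP1 at 0.30 (-0.04 to 0.64) and RPL18 at 0.46 (-0.16 to 1.07). Without nitrogen 6.6 M library 3 they were 0.21, 0.19 and 0.22, and without helium 6.6 M library 2 RPL18 was 0.19.

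Nor did the effect of concentration differ detectably between coolants. For this interaction edgeR and DESeq2 called 0 of 42 members, edgeR called 0% of all genes, and 0 members had an unadjusted p under 0.05. Of the 42, 8 were below 0 (50% of all genes). The smallest p-values were those of RPL13 at 0.79, RPS3A, a small-subunit protein at the mRNA exit, at 0.66 and RPS15, a head protein, at 0.76. The intervals at 2 SE, -0.04 to 1.61, -0.17 to 1.48 and -0.26 to 1.78, are wide enough to hold a change of more than 2 times. With 1 library left out RPS15 ranged from 0.46 (without helium 6.6 M library 2) to 1.45 (without nitrogen 6.6 M library 3), and was 0.48 without nitrogen 6.6 M library 2, and RPS3A was 0.40 without nitrogen 5.6 M library 1.

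Unnamed genes described as ribosomal proteins gave 3 with calls by edgeR of 37 tested, all lower. Of all genes edgeR called 0.284% lower in helium 5.6 M, 0.237% over all vitrified libraries and 0.592% between coolants. DESeq2 called 3 unnamed genes lower in helium 5.6 M (3.96% of all genes either way) and 5 between coolants (3.48%). It called 2 lower in helium 6.6 M (4.62%), 2 over all vitrified libraries (3.44%) and 1 higher in nitrogen 5.6 M (0.931%). The L6 gene on chromosome 17 (ENSBTAG00000031723), a large-subunit protein gene, was at 27.9, 20.02 and 19.7 CPM in fresh oocytes. It was at 8.34 to 10.4 CPM in the helium libraries and 8.09 to 16.2 CPM in the nitrogen ones, so all 12 vitrified libraries lay below all 3 fresh ones. It fell by 1.08 over all vitrified libraries (SE 0.21, edgeR adjusted p = 0.0196), a call kept in 14 of 15 fits that left out a library. Without fresh library 1 the difference was -0.87 (edgeR adjusted p = 0.205). The differences in helium, -1.28 at 5.6 M (edgeR adjusted p = 0.0402) and -1.299 at 6.6 M (0.0307), passed too but held in only 4 and 9 of those 15 fits (0.0171 to 0.219 and 0.0111 to 0.203). With the replicate number as a block, the call at 6.6 M was lost (-1.29, edgeR adjusted p = 0.0787), as was that over all vitrified libraries (-1.005, 0.172).

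The other 2 genes were called between the coolants, as RPL37 was. The S27-like gene on chromosome 10 (ENSBTAG00000012898) was at 37.0 to 43.7 CPM in helium and 57.7 to 86.1 CPM in nitrogen, without overlap. In fresh oocytes it was at 56.5, 37.5 and 48.7 CPM, so helium overlapped fresh and every nitrogen library lay above every fresh one. Its difference between helium and nitrogen was -0.80 (SE 0.13, edgeR adjusted p = 0.006). That call held in all 15 fits that left out a library. An intronless entry described as L39 on chromosome 14 (ENSBTAG00000047136) was at 1.46 to 2.56 CPM in helium, 3.47 to 8.44 CPM in nitrogen and 5.51 to 7.97 CPM in fresh oocytes. It fell by 1.49 against nitrogen (SE 0.29, edgeR adjusted p = 0.0167), and by 1.91 in helium 5.6 M against fresh (0.0449). These held in 9 and 3 of the 15 fits that left out a library. With depth class in the fit none of the 3 genes passed: the edgeR adjusted p was 0.311 for L6 over all vitrified libraries, and 0.265 for the S27-like gene and 0.106 for L39 between coolants. With the length trend taken out, L6 still passed over all vitrified libraries (-1.22, edgeR adjusted p = 0.0160), and the S27-like gene (-0.57, 0.0804) and L39 (-0.86, 0.169) did not between coolants.

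Genes that build or serve the cytosolic ribosome gave no calls by edgeR. Of 45 ribosome assembly genes 40 were tested and none was called by edgeR in any comparison. Over all vitrified libraries their median was 0.12 and 30 of 40 were above 0, where 3922 of all 8441 genes were. At an unadjusted p under 0.05 there were 4 higher, against 5.88% of all genes. DESeq2 called 1 of the assembly genes, EBNA1BP2, higher in helium 6.6 M, where it called 4.62% of all genes. The 3 tested elongation factors EEF1B2, EEF1G and EEF2, the 7 tested other mRNAs with a pyrimidine start and the 9 tested regulators of such mRNAs, among them MTOR, LARP1 and RPS6KB1, gave 0 calls by edgeR. At an unadjusted p under 0.05 over all vitrified libraries, 1 elongation factor was lower, where 7.71% of all genes were. In these libraries 2 of the pyrimidine-start mRNAs and 1 regulator were higher, where 5.88% of all genes were. DESeq2 called EIF3H and EIF3K, subunits of an initiation factor with a pyrimidine start, higher over all vitrified libraries (3.44% of all genes). It also called EIF3H higher in helium 5.6 M (3.96%) and EIF3K higher in helium 6.6 M (4.62%). No elongation factor and no regulator was called by DESeq2.

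The mitochondrial ribosome, which translates only mitochondrially encoded mRNAs, leaned toward higher levels after vitrification. Of its 71 genes 66 were tested, and over all vitrified libraries 54 of 66 were above fresh with a median of 0.22, where the cytosolic members had a median of -0.19, with 26 of 42 below 0. The only call was MRPL20, at 474 to 717 CPM in fresh and 854 to 1396 CPM in vitrified oocytes, which rose by 0.93 (SE 0.17, edgeR adjusted p = 0.0179), where 0.272% of all genes were called higher and 3922 of 8441 were above 0. That call was lost without fresh library 1 (0.83, edgeR adjusted p = 0.142) and with depth class in the fit (0.81, 0.323). DESeq2 called 4 of the mitochondrial genes higher, where it called 3.44% of all genes either way. Between the coolants the mitochondrial set had a median of -0.01, with 33 of 66 below 0. The difference between the sets was not tested.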

How the data were processed

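The members and lists were chosen with earlier results of these data known. The authors deposited raw counts, whole numbers for each Ensembl gene in each library, per the file headers. FPKM values stood beside them in the deposited table, and for all 180473 values above 0 they matched the count over gene length and library total to within 0.1%, which also gave each gene's exonic length. The submitters' processing notes name UMD3.1 as the build, with StringTie 1.3.0 and HISAT2 2.0.4 as tools. Strandedness and the treatment of multi-mapping reads are not stated in those notes or the labels, so near-identical copies and overlapping antisense genes may share reads.

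Groups came from the treatment labels. In R 4.3.3, edgeR 4.0.16 with limma 3.58.1 fitted all 15 libraries and 5 groups at once, robustly, with TMM scaling and no replicate block, on the 8441 genes that passed filterByExpr. Adjustment was by Benjamini-Hochberg over these genes with a threshold of 0.05. The script was tested on simulated counts. No set test was made. Alternatives were DESeq2 1.42.0, upper-quartile scaling, TMM without members and mitochondrial genes, no filter, only the groups compared, no robust estimation, a replicate block, depth class, each library left out and, added after the data were seen, a loess trend on gene length. No library was a copy of another: chi-square per degree of freedom within groups was 6.23 to 34.7.

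Members were named if called in any comparison, among the 3 smallest p-values of a comparison, among the 6 most and 4 least abundant, never counted, sharing a name stem with another member, or of the P stalk, 5S particle or entry channel, or RPS6 or RPSA. Beyond that rule, RPS13, RPS20, RPL19 and some of the steadiest and least steady members were named after their values were seen. A few members that the rule names are not reported here. Libraries of helium 6.6 M and fresh with the same number deviated together from their group means (correlations of 0.162, 0.320 and 0.243, each above 0.1). Of all 22 pairs of libraries with the same number 11 were above 0.1, and they ranged from -0.380 to 0.468. Libraries with different numbers were not compared, so whether the numbers pair any groups is open. The sources used here hold no sequence for these genes on this build, and none is printed.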

Additional observations from a re-analysis of the deposited data

Results flagged for a closer look

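Outlying libraries were looked for in groups of 6, for the called members and the members' share, 12 tests in all. The groups were the helium, the nitrogen, the 5.6 M and the 6.6 M libraries. A library stood out where its gap to the nearest other was over 0.625 of the group's range, which chance does in about 1 in 20 groups, and 3 did. RPL37A was at 24.2 CPM in helium 6.6 M library 2 against 15.9 to 19.0 CPM in the 5 other helium libraries. The members' share of counts in the same library was 0.482% against 0.331% to 0.368%. RPL37 was at 36.4 CPM in nitrogen 5.6 M library 3 against 25.3 to 29.4 CPM in the 5 other nitrogen libraries.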

How the results depend on the processing

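Counts of members called depended on the settings. In helium 5.6 M against fresh (1 called) DESeq2 called 4 and a fit with no filter 3, and fits of only these groups or with depth class called 0. In helium 6.6 M (0 called) DESeq2 and no filter each called 3 and the length trend 1. Over all vitrified libraries (1 called) DESeq2 called 2, no filter 3, the length trend 2 and depth class 0. Between helium and nitrogen (1 called) DESeq2, no filter and only these groups each called 3, and depth class 0. The other 4 comparisons had 0 calls under every setting run. With 1 library left out, calls ranged from 0 to 2 in helium 5.6 M, 0 to 3 in helium 6.6 M, 0 to 2 over all vitrified libraries and 1 to 3 between coolants, with 0 to 0 elsewhere. Counts over all genes moved too: edgeR and DESeq2 called 40 and 270 in helium 5.6 M, 53 and 315 in helium 6.6 M, 43 and 213 over all vitrified libraries and 56 and 270 between coolants, where no filter called 344, only these groups 308 and depth class 13. The replicate numbers are not shown to pair libraries. With the replicate block 0 members were called over all vitrified libraries (RPL37A -1.08, edgeR adjusted p = 0.150), where 1 of all genes was. Between coolants 0 members were called with it (RPL37 -1.22, edgeR adjusted p = 0.154), and 0 of all genes. Numbers 4 and 5 occur only in helium 5.6 M, so in this fit that group rested on its library 3. The block changed no other count of members. The calls of L6 in helium 6.6 M and over all vitrified libraries, of the S27-like gene (edgeR adjusted p = 0.265) and L39 (0.318) between coolants and of MRPL20 over all vitrified libraries (0.117) were lost with it. Helium 5.6 M shares a single number with fresh, and its own comparison with fresh was fitted without a block. The members' share with 1 library left out ranged from 0.330% to 0.421% fresh, 0.347% to 0.354% and 0.349% to 0.425% in helium at 5.6 M and 6.6 M, and 0.351% to 0.387% and 0.353% to 0.392% in nitrogen. As a share of the FPKM sum it was 0.751%, 0.672%, 0.732%, 0.703% and 0.714% in the same order, and outside mitochondrial counts 0.364% in helium 5.6 M. Of 945 recomputed values of 40 named differences, 821 kept their direction and side of the threshold, 92 lost their call, 31 gained one and 1 reversed, RPS13 between coolants at 0.13 with depth class. The cause of these shifts was not tested. Fits with fewer libraries have less precision, but without fresh library 2 edgeR called more genes than in the main fit. It then called 431 in helium 5.6 M, 598 in helium 6.6 M, 230 over all vitrified libraries and 234 between coolants. A setting without fresh library 2, helium 6.6 M library 2 and nitrogen 6.6 M library 3 was tried and dropped, because these had been picked by the members' own share. Depth limits the shallow libraries most: members at a few CPM rest on few counts there.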
